A study of Bubalus bubalis with 6 samples.

Results

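The miR-15/16 family and its relatives miR-103 and miR-107 were followed in cell-free saliva of Murrah buffaloes (Bubalus bubalis) at estrus and at diestrus. Members were the listed miRNAs named miR-15a, miR-15b, miR-16a, miR-16b, miR-195, miR-497, miR-103 or miR-107, with or without an arm suffix. Of the 273 miRNAs in the deposited table, 6 were members: miR-15a, miR-15b, miR-16a, miR-16b, miR-103 and miR-107. miR-195 and miR-497 were not analysed here. Saliva came from 3 healthy animals labelled wildtype, and each gave 1 small RNA library per phase, so that 3 estrus libraries faced 3 diestrus libraries and the replicate number is the animal. At estrus the cow is receptive and close to ovulation, and at diestrus the corpus luteum is active. The comparison asked which salivary miRNAs differ between the phases.

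MicroRNAs are short RNAs that guide the silencing of messenger RNAs, mainly through pairing of their 5′ seed bases. miR-15a, miR-15b, miR-16 and, in a shifted frame, miR-103 and miR-107 share an AGCAGC core in this region and are grouped together for it. In mammals the miR-15 and miR-16 genes lie side by side, miR-15a with a miR-16 copy in the non-coding host gene DLEU2 and miR-15b with another copy in SMC4. They are known for restraining BCL2 and G1 cyclins. The genes of miR-103 and miR-107 lie in introns of pantothenate kinase genes, and these miRNAs are known for effects on insulin sensitivity and on Dicer. miR-16 is abundant in blood cells, and it is often used as a reference miRNA in body fluids. Because miR-103 and miR-107 have nearly identical mature sequences, as have the miR-16 copies, reads may not be assignable to 1 of a pair.

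Values are given as recovered reads, as the deposited normalized count (reads divided by the size factor of the library) or as a percentage of the miRNA reads of a library. Depth ranged from 3015 to 5548 reads at diestrus and from 6749 to 27036 reads at estrus, so depth and phase cannot be told apart. On the deposited scale 1 read was worth 1.63 to 2.85 at diestrus, 1.81 in estrus replicate 2, 0.394 in estrus replicate 1 and 0.18 in estrus replicate 3. Estrus replicate 3 held 42.1% of all reads and stands apart from the other libraries, and its description in the labels carries the abbreviation Repl, which no other library has and which is not explained in the sources used here. miR-1246 held 55.0% to 76.2% of each diestrus library and 1.20% to 20.0% of each estrus library, so shares of a library move with it. Epithelial miRNAs were detected for 7 of 8 names listed, and they summed to 9.41% of estrus replicate 3 against 0.163% to 1.10% of the other estrus libraries and 0.252% to 0.356% of the diestrus libraries. Leukocyte miRNAs were detected for 4 of 5 names, at 0.575% to 2.27% at estrus and 1.77% to 3.68% at diestrus. In a cell-free fluid, fewer cells of a type and less RNA released per cell cannot be told apart.

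The family was a small part of salivary miRNA, with 991 reads over the 6 libraries, and 1 library held most of them. The members together made up 0.190%, 0.296% and 3.15% of estrus replicates 1, 2 and 3, with 95% Wilson intervals of 0.134 to 0.268, 0.192 to 0.457 and 2.95 to 3.37. They made up 0.929%, 0.324% and 0.811% of diestrus replicates 1, 2 and 3, with intervals of 0.643 to 1.34, 0.205 to 0.512 and 0.598 to 1.10. Estrus replicate 3 was thus the highest library and the other estrus libraries were the lowest, so the phases overlapped. Averaged over the libraries of a phase, the share was 1.21% ± 1.68 for estrus and 0.688% ± 0.32 for diestrus (SD, n = 3 each). The difference of 0.524 percentage points was smaller than the spread among the estrus libraries. The direction turned in several alternatives, with a difference of -0.445 percentage points without estrus replicate 3, -0.179 without miR-16a and -1.31 with miR-1246 left out of the totals. On those totals without miR-1246, the members held 3.91% of diestrus replicate 1 and 3.07% of diestrus replicate 3, close to the 3.21% of estrus replicate 3, while the remaining libraries held 0.192% to 0.72%.

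**Figure D1:**
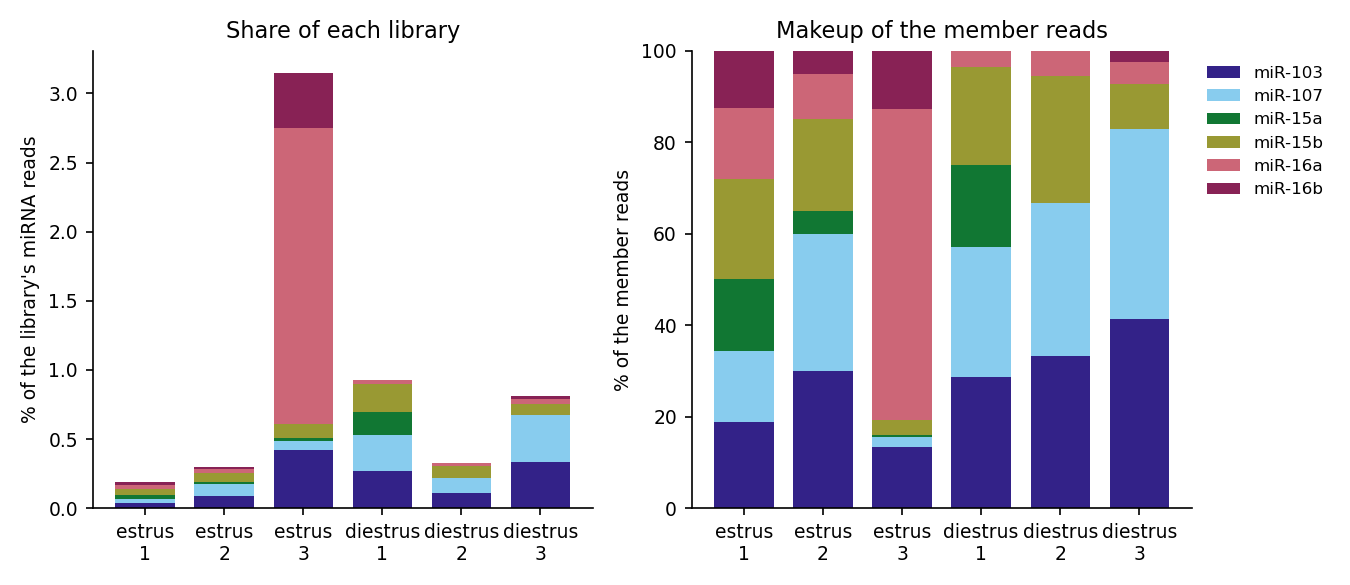
Reads of the 6 members in each library, as a stacked percentage of the library's miRNA reads (left) and as a percentage of the member reads alone (right); each bar is 1 library and each colour 1 member. In estrus replicate 3 the members reach 3.15% of the library and miR-16a makes up 68.0% of their reads, while miR-103 and miR-107 together make up 57.1% to 82.9% of the member reads at diestrus.

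The makeup of the family differed between estrus replicate 3 and the diestrus libraries. At diestrus, miR-103 and miR-107 together gave 57.1%, 66.7% and 82.9% of the member reads in replicates 1, 2 and 3, the miR-15 pair gave 39.3%, 27.8% and 9.76%, and the miR-16 pair gave 3.57%, 5.56% and 7.32%. In estrus replicate 3 the order was turned, with 80.8% of the member reads from the miR-16 pair (95% Wilson interval 78.0 to 83.3) and 15.5% from miR-103 and miR-107 (13.2 to 18.1). Estrus replicate 2 was like the diestrus libraries in its part from miR-103 and miR-107, at 60%. Its miR-16 pair, at 15%, lay above each diestrus value, on only 20 member reads. Estrus replicate 1, with 32 member reads, lay in between at 34.4% and 28.1%, with 37.5% from the miR-15 pair. Because miR-103 and miR-107 had equal reads in 4 libraries, the same reads may be counted for both. With miR-107 left out, an alternative chosen after seeing the data, miR-103 gave 40%, 50% and 70.8% in diestrus replicates 1, 2 and 3 and the miR-15 pair 55%, 41.7% and 16.7%, so the miR-15 pair was then the largest part of diestrus replicate 1. The miR-16 pair remained the smallest part of each diestrus library, at 5% to 12.5%, and gave 82.6% of estrus replicate 3. Intervals cover counting error only.

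Among the miR-16 copies, miR-16a (bta-miR-16a) was the most abundant member over all libraries, with 590 reads, of which 98.1% came from estrus replicate 3. Its reads numbered 5, 2 and 579 in estrus replicates 1, 2 and 3 and 1, 1 and 2 reads in diestrus replicates 1, 2 and 3. Only estrus replicate 3 was high, and there miR-16a was the miRNA ranked 12 by reads. It held 2.14% of that library (95% Wilson interval 1.98 to 2.32), and the upper bound of the interval in each of the other 5 libraries was at most 0.188%. The normalized count was 1.97, 3.62 and 104 at estrus and 2.85, 1.63 and 3.44 at diestrus, so the phases overlapped and the other estrus libraries stood within or near the diestrus range. The diestrus values rest on less than 3 reads per library, the floor used for a level.

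miR-16b, the other listed miR-16 copy, had the same outline at lower counts, and reads that match both copies may be counted in both. Estrus replicates 1, 2 and 3 gave 4, 1 and 109 reads and the diestrus libraries 0, 0 and 1, so 94.8% of its 115 reads came from estrus replicate 3. Taken as 3 reads of the total, a count of 0 allows a share of up to 0.0995% in diestrus replicate 1 and 0.0541% in diestrus replicate 2, and the shares of estrus replicates 1 and 2, 0.0237% and 0.0148%, lie below these limits. Its absence from these shallow diestrus libraries is therefore not distinguishable at their depth from its level in estrus replicates 1 and 2. In estrus replicate 3 its share was 0.403% (95% Wilson interval 0.334 to 0.486). All diestrus libraries were under the floor, so no fold change is given.

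The concentration of miR-16a in 1 library was shared with other tested miRNAs. Estrus replicate 3 held 88.5% of the summed normalized count of miR-16a over the 6 libraries, and it is only through this library that miR-16a is among the 58 miRNAs tested below. For 22 of these 58 (37.9%) it held more than 50% of the sum, and the median over the 58 was 15.6%. Other miRNAs high only in this library can also have entered the 58 through it, so the 37.9% is partly set by the filter. For the other tested members estrus replicate 3 held 21.3% of miR-103, 10.3% of miR-15b and 4.38% of miR-107. Because red blood cells are rich in miR-16, their markers were read in the same libraries. Only miR-486 of the 3 erythrocyte names was listed, with 2, 0 and 8 reads in the estrus libraries and 0, 0 and 1 in the diestrus libraries, or 0.0296% of estrus replicate 3. The epithelial miRNAs were at their highest in the same library. The leukocyte miRNAs together were not, since their 2.27% there lay below the 3.68% and 3.62% of diestrus replicates 1 and 3. Of the 4 leukocyte miRNAs listed, miR-150 and miR-155 had 16 and 20 reads in estrus replicate 3 and 0 in the other 5 libraries. miR-142-5p had 2, 5 and 1 reads in estrus replicates 1, 2 and 3 against 13, 13 and 19 at diestrus. miR-223 had 95, 67 and 577 reads at estrus against 98, 85 and 164 at diestrus. Such reads are not scaled for depth, and estrus replicate 3 was the deepest library. The part of these cell sources in the miR-16a level was not tested.

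miR-103 and miR-107 were detected in every library, and their reads were often equal. miR-103 had 6, 6 and 113 reads in estrus replicates 1, 2 and 3 and 8, 6 and 17 reads in diestrus replicates 1, 2 and 3. miR-107 had 5, 6 and 19 reads in the estrus libraries and 8, 6 and 17 in the diestrus libraries. The counts were the same in 4 of the 6 libraries, among them all 3 diestrus libraries, and differed by 1 read in estrus replicate 1. They parted by more than 1 read only in estrus replicate 3. There miR-103 took 85.6% of the reads of the pair (95% Wilson interval 78.6 to 90.6), against 50% in each library with equal counts. The other pairs were split alike in that library, with 84.2% for miR-16a (81.2 to 86.7) and 84.4% for miR-15b (68.2 to 93.1).

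Equal counts of this kind were rare in the table. Of the 19 miRNAs with at least 5 reads in every library, which form 171 pairs, miR-103 with miR-107 was the only pair with equal reads in 4 or more libraries. The next pair, miR-27a-3p with miR-27b, was equal in 3. This check was chosen after the counts had been seen. The counting rule for reads that match both miRNAs is not given in the sources used here. Levels of miR-103 and miR-107 may therefore hold the same molecules in any library and are not taken as independent measurements. The shares and Wilson intervals of the pair assume that each read was counted once.

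**Figure D2:**
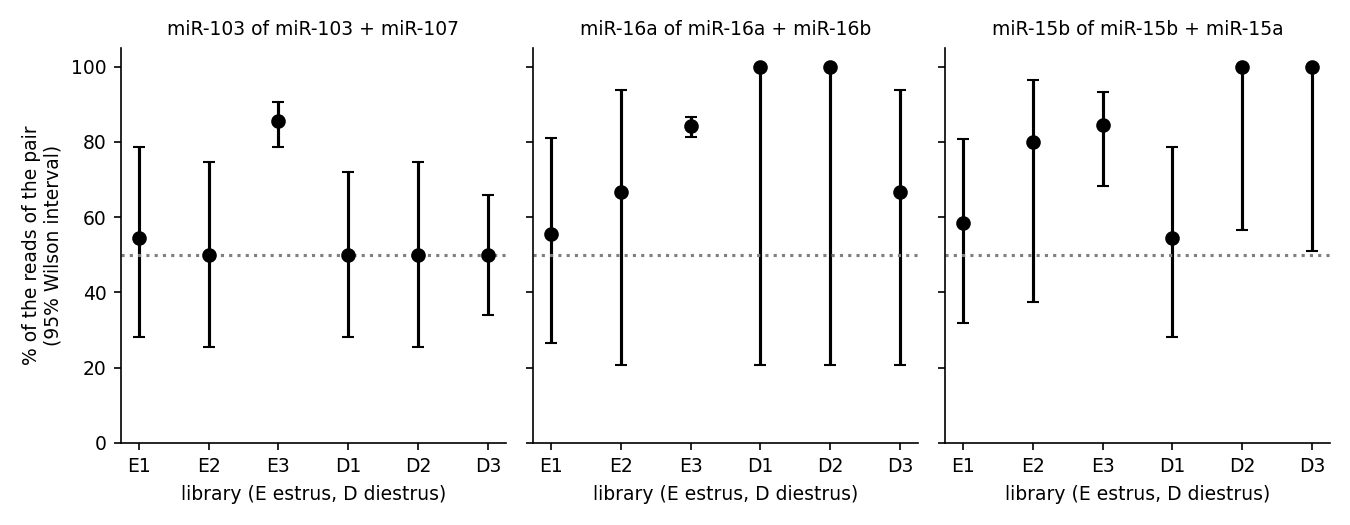
Share of the first-named miRNA in the reads of 3 near-identical or related pairs (vertical axis, %; points, 1 library each; bars, 95% Wilson interval; dotted line, equal reads) in the 6 libraries (horizontal axis). miR-103 lies at 50% in 4 libraries and at 85.6% in estrus replicate 3, where miR-16a lies at 84.2% and miR-15b at 84.4%. Wide bars come from pairs with few reads.

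On the deposited scale miR-103 stood at 2.36, 10.8 and 20.3 normalized counts in estrus replicates 1, 2 and 3 and at 22.8, 9.77 and 29.2 in diestrus replicates 1, 2 and 3. The lowest library was estrus replicate 1 and the phases overlapped. The estrus mean was 11.2 ± 8.99 and the diestrus mean 20.6 ± 9.91 (SD, n = 3 each). By normalized count the estrus value of miR-103 was the lower one in animals 1 and 3 and slightly the higher one in animal 2. As a share of the library it was lower in animals 1 and 2, at 0.0356% against 0.265% and 0.0889% against 0.108%, and higher in animal 3, at 0.418% against 0.336%.

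For miR-107 the estrus values were 1.97, 10.8 and 3.42 normalized counts and the diestrus values were, as for miR-103, 22.8, 9.77 and 29.2. Diestrus replicates 1 and 3 were above every estrus library, and diestrus replicate 2 was just below estrus replicate 2. The mean was 5.41 ± 4.76 for estrus against 20.6 ± 9.91 for diestrus (SD, n = 3 each). Its shares of the library were 0.0296%, 0.0889% and 0.0703% at estrus against 0.265%, 0.108% and 0.336% at diestrus. On this scale the phases did not overlap for miR-107, as for 10.3% of the 58 miRNAs tested below, while miR-103 overlapped because of the 0.418% in estrus replicate 3. The nearest libraries, estrus and diestrus replicate 2, had 6 reads each, and their 95% Wilson intervals of 0.0408 to 0.194 and 0.0496 to 0.236 overlapped.

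Of the miR-15 members, miR-15b was detected in every library on few reads. It had 7, 4 and 27 reads in estrus replicates 1, 2 and 3 and 6, 5 and 4 reads in diestrus replicates 1, 2 and 3, or 2.76, 7.23 and 4.86 against 17.1, 8.14 and 6.87 normalized counts. On this scale its estrus value was the lower one in every animal, and the phases overlapped, since estrus replicate 2 exceeded diestrus replicate 3. As a share of the library the estrus value was below the diestrus value in animals 1 and 2, at 0.0415% against 0.199% and 0.0593% against 0.0901%, and higher in animal 3, at 0.0999% against 0.0791%. By normalized count 10.3% of the 58 tested miRNAs were lower at estrus in all 3 animals, and miR-15b was the only member of the 4 tested to be so. Its estrus mean of 4.95 ± 2.24 compared with a diestrus mean of 10.7 ± 5.57 (SD, n = 3 each).

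miR-15a had 5, 1 and 5 reads in the estrus libraries and 5, 0 and 0 in the diestrus libraries. Its highest normalized count, 14.2 in diestrus replicate 1, rests on 5 reads in the shallowest library, and the same 5 reads were worth 0.9 in estrus replicate 3. The Wilson interval for that diestrus library ran from 0.0709% to 0.388%, and it did not overlap the interval of 0.0079 to 0.0433 in estrus replicate 3. By the same limit of 3 reads, a count of 0 allows up to 0.0541% and 0.0593% in diestrus replicates 2 and 3, above each of the 3 estrus shares of 0.0148% to 0.0296%. The absence of miR-15a from these 2 libraries was therefore not distinguishable at this depth from its level at estrus.

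**Figure D3:**
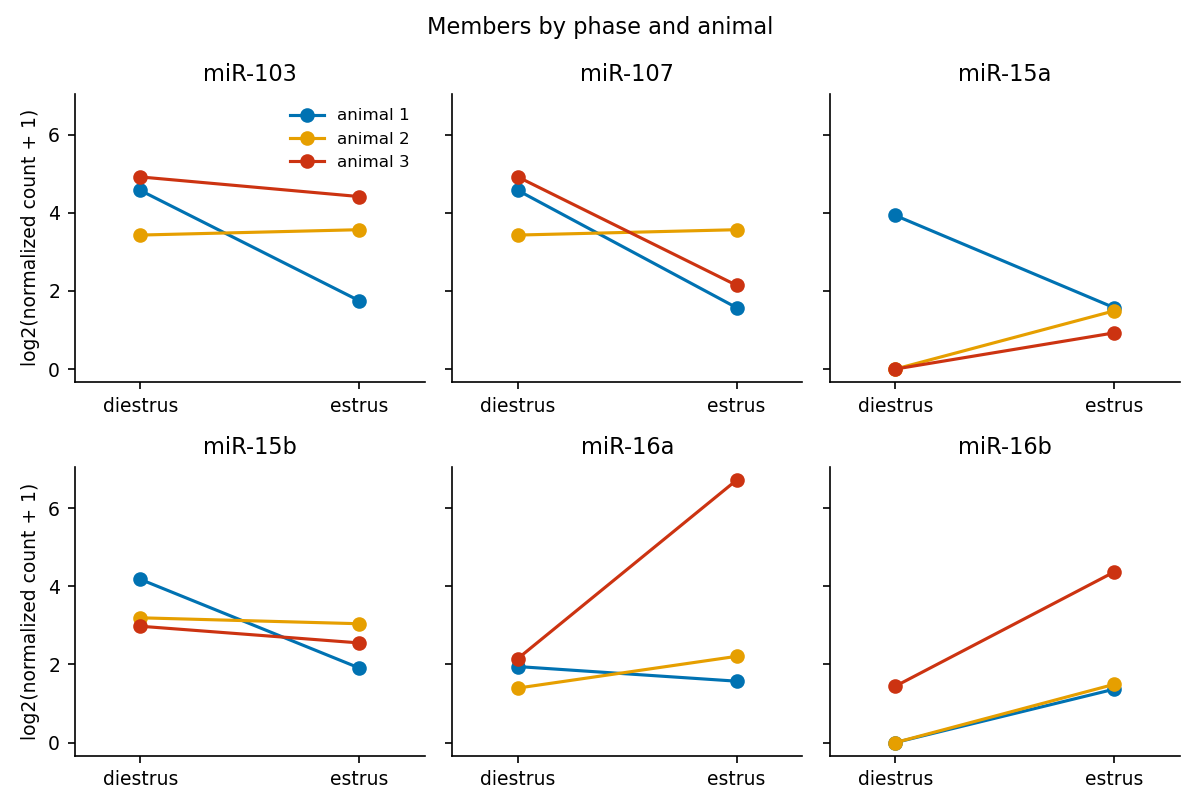
Level of each member as log2(normalized count + 1) (vertical axis) at diestrus and estrus (horizontal axis), with 1 line per animal. miR-15b is lower at estrus on all 3 lines, miR-103 and miR-107 are lower in animals 1 and 3 only, and the line of miR-16a climbs in animal 3 from 2.15 to 6.72.

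Each of the 6 members had at least 1 read in every estrus library, whereas diestrus replicates 1, 2 and 3 held 5, 4 and 5 of them. At the depth of the shallowest library, 3015 reads, the expected number was 3.87, 4.44 and 5.30 in estrus replicates 1, 2 and 3 and 5, 3.51 and 4.41 in diestrus replicates 1, 2 and 3. The phases overlapped at that common depth, and the difference in mean was 0.23 members, against 1.33 at the depths of the libraries. At this depth miR-16a would have had 64.6 reads in estrus replicate 3 and at most 1.19 in any other library.

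No member passed the test between the phases. Levels were compared with limma on log2(normalized count + 1) over the 58 miRNAs with a mean of at least 5, which 4 members passed (miR-103, miR-107, miR-15b and miR-16a), and p-values were adjusted over these 58 by the Benjamini-Hochberg method. At an adjusted p below 0.05, 0 of the 4 were called, with 0% of all tested miRNAs called. At an unadjusted p below 0.05, 0 of the 4 passed in limma, where 13.8% of all tested miRNAs did, 0 of the 4 in edgeR, where 17.2% did, and 0 of 3 in DESeq2, which gave miR-16a no p-value and called 16.7% of the miRNAs that had one. By normalized count the phases did not overlap for 6.9% of the tested miRNAs, and for 0 of the 4 members. As a share of the library they did not overlap for 10.3%, among them 1 member, miR-107.

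Changes are given as the estrus mean less the diestrus mean of log2(value + 1), a scale that shrinks the change of low miRNAs. The change of miR-107 was -1.88 (SE 1.49, adjusted p = 0.626 in limma). For miR-103 it was -1.06 (SE 1.47, adjusted p = 0.728 in limma), and for miR-15b -0.95 (SE 1.54, adjusted p = 0.728 in limma). The fitted value of miR-16a had the opposite sign, at 1.67 (SE 1.59, adjusted p = 0.626 in limma). miR-16a passed the filter only through its 104 normalized counts in estrus replicate 3, and with under 3 reads in each diestrus library its fitted value depends on the pseudocount and is no measure of a fold. Each change was smaller than 2 of its standard errors, so values of either sign remain possible for every member.

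The 58 tested miRNAs were not centred on 0, with a median of 0.90 and 42 higher at estrus against 16 lower. Of the 4 tested members 3 were lower at estrus, where 27.6% of all tested miRNAs were, and the median of the 4 was -1.01. This split depends on the filter. With no filter on low values 3 members were lower and 3 higher, where 86 of the 273 miRNAs were lower. The background depends on the scaling, with 34 higher and 24 lower after median centring and 26 higher and 32 lower for totals without miR-1246, while 3 of the 4 members were lower under each. Relative to the median of all, the changes were -2.78 for miR-107, -1.96 for miR-103 and -1.84 for miR-15b. miR-107 was the miRNA ranked 5 from the lowest change, miR-103 ranked 10 and miR-15b ranked 12. Since miR-103 and miR-107 had equal reads in 4 libraries and may share reads, their changes are not taken as separate observations.

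The value of miR-16a rested on estrus replicate 3. Without this library the change was 0.059 with a standard error of 0.515, and leaving out any other library gave 1.45 to 2.63. For miR-103 it was -1.65 without estrus replicate 3, against -1.06 with it, and -0.32 without estrus replicate 1. The change of miR-107 was -1.74 without estrus replicate 3, and that of miR-15b was -0.97. miR-15b moved to -0.65 without estrus replicate 1 and to -0.58 without diestrus replicate 1, the library with its highest value.

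**Figure D4:**
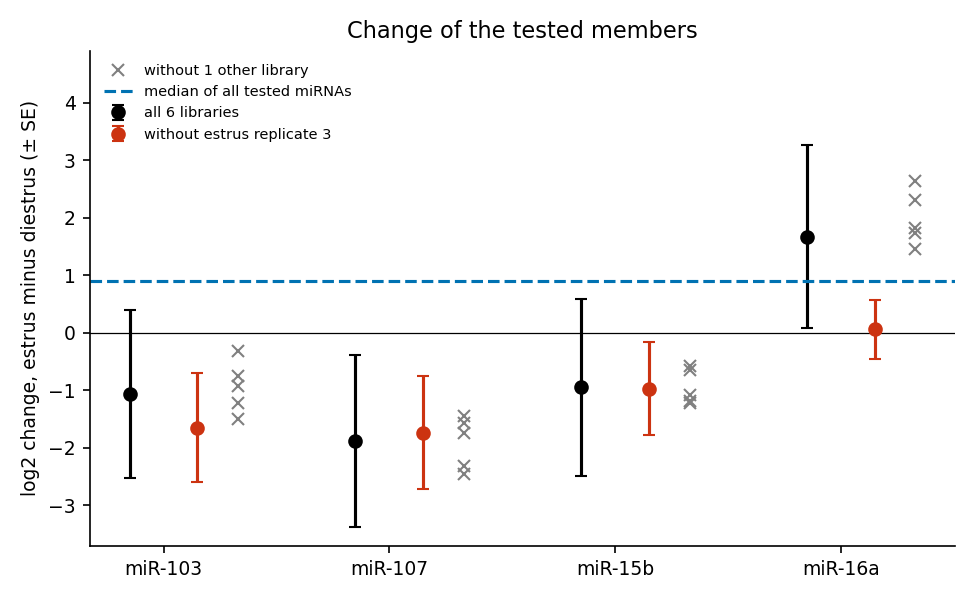
Log2 change from diestrus to estrus of the 4 tested members (vertical axis; black, all 6 libraries; red, without estrus replicate 3; bars, standard error; crosses, without 1 of the other libraries; dashed line, median of all 58 tested miRNAs). The value of miR-16a goes from 1.67 to 0.059 when estrus replicate 3 is left out, and those of the other 3 members stay below 0 in every such fit.

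With no filter on low values, all 6 members of the 273 miRNAs could be fitted. At an unadjusted p below 0.05, 0 of the 6 members passed, where 5.86% of the 273 did (limma). No change is given for miR-15a and miR-16b, which had diestrus libraries at 0.

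Patterns over the 6 libraries were compared for the 4 tested members; miR-15a and miR-16b were below the filter. Likeness was measured as the mean absolute difference of log2(value + 1), with each miRNA centred on its own mean, over the same 6 libraries, which share their depth and scaling. miR-107 differed from miR-15b by 0.56, from miR-103 by 0.62 and from miR-16a by 1.99. Outside the family, miR-223, a miRNA of myeloid leukocytes, was nearest to miR-103 at 0.34 and to miR-107 at 0.30, where the median distances to the 54 other tested miRNAs were 1.73 and 2.00. miR-320a followed for both, at 0.45 and 0.44, and it was the nearest to miR-15b at 0.28. miR-205, at 0.57 from miR-103, miR-23a, at 0.79 from miR-107, and miR-223 and miR-27b, at 0.39 and 0.53 from miR-15b, complete the nearest miRNAs of each.

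The miRNAs nearest to miR-16a were others read almost only in estrus replicate 3, and like miR-16a they passed the filter only through that library. These were miR-425-5p at a distance of 0.36, with 218 of its reads in that library and 1 elsewhere, miR-148a at 0.45, with 370 reads there and 0 in the other 5, and miR-30d at 0.49, with 709 reads there and 30 in the other 5, 24 of them in estrus replicate 1. The median distance of the 54 other tested miRNAs from miR-16a was 1.65. The small distances follow in part from the filter and from values near 0 in the other libraries.

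Further miRNAs of the wider group with the AGCAGC core were near absent. Of the 5 names listed, miR-424-5p had 2 reads in all, 1 each in estrus replicate 1 and diestrus replicate 3, and miR-503-5p had 4 reads, 3 in diestrus replicate 3 and 1 in estrus replicate 2. Neither was tested, and miR-322, miR-646 and miR-6838 were not analysed here.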

How the data were processed

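The authors deposited 1 table of normalized counts, a signal scaled by 1 size factor per library. The submitters' processing notes name cutadapt, UMI-tools, Bowtie, SAMtools, featureCounts and DESeq2. Their roles, the genome build and the miRNA reference are not given in the sources used here. Per the labels' protocols, the QIAseq miRNA kit was used, which adds unique molecular indices; whether these were collapsed is not given, so intervals and floors cover counting error only.

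Dividing each column by its smallest value gave whole numbers for 100% of entries (tolerance 0.001), taken as 64277 reads in all. Steps matched median-of-ratios size factors over 43 miRNAs. A level rests on at least 3 reads. Shares carry 95% Wilson intervals (scipy 1.17.1).

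The test was limma 3.58.1 (R 4.3.3) on log2(value + 1) with a mean-variance trend, for miRNAs with a mean of at least 5; its tests shared 1 trend and used 232 degrees of freedom. edgeR 4.0.16 and DESeq2 1.42.0 ran on the recovered reads as alternatives. The fits to all libraries were run on simulated counts with large planted changes and no library that stood apart. That run does not show whether changes of the size seen here would be found. Same-numbered samples come from the same animal per the labels. Their deviations from the phase means correlated at -0.0046, 0.37 and 0.30. Samples of different animals gave -0.41 to 0.34. The labels name no batch.

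The naming rule took every listed member, the wider AGCAGC group, miR-1246 and the 3 tested miRNAs nearest to each tested member. The members, lists and tests were chosen with earlier results of these data known. Sequences and genomic positions were not analysed here.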

Additional observations from a re-analysis of the deposited data

How the results depend on the processing

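In each of 17 alternatives 0 of the 4 tested members passed the adjusted threshold, and the 68 log2 changes kept their sign, although that of miR-16a was 0.059 without estrus replicate 3, far inside its standard error of 0.515. The alternatives reuse the same libraries, so the 68 signs are not separate checks. Relative to the median of all tested miRNAs the miR-16a value, 0.77, turned to -0.66 without estrus replicate 3 and -0.012 without diestrus replicate 2. Apart from the fits without 1 library, they ranged from -2.29 to -0.57 for miR-103, -3.10 to -0.97 for miR-107, -2.13 to -0.45 for miR-15b and 0.65 to 3.80 for miR-16a. Adjusted p-values over all alternatives ran from 0.471 to 0.922, 0.371 to 0.922, 0.473 to 0.922 and 0.307 to 0.945 in the same order (limma, edgeR and DESeq2), and DESeq2 gave no p-value for miR-16a. With the animal as a replicate block the changes were the same by construction, at -1.06, -1.88, -0.95 and 1.67, and the standard errors were 1.51, 1.50, 1.52 and 1.55; the block changed no call. The median of all tested miRNAs was 0.90 as deposited and -0.19 for totals without miR-1246, so the members' changes there are lower by construction. Among all tested miRNAs 0 passed the adjusted threshold (limma), with 1 for totals without miR-1246 and 0 to 6 over the fits without 1 library, 6 without estrus replicate 2; the cause was not tested.

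The difference in the members' share, 0.524 percentage points, was -1.31 of the reads without miR-1246, -0.179 without miR-16a, 0.698 without miR-107 (chosen after seeing the data) and -0.445 to 1.04 without 1 library. The difference in members detected, 1.33, was 1.67 at 3 reads or more, 0.23 at the smallest depth and 1 to 1.5 without 1 library. Depth limits miR-15a and, outside estrus replicate 3, miR-16a and miR-16b, whose levels there rest on 0 to 5 reads.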
